A study of Homo sapiens with 9 samples.

Results

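The CYP, UGT, GST and ALDH genes encode the main enzyme families of detoxification. They were taken as all protein-coding genes whose platform symbol is CYP, UGT or ALDH followed by a digit, or begins with GSTA, GSTM, GSTP, GSTT, GSTO, GSTK or GSTZ. The rule found 91 of the 19775 genes on the array, with 169 of its 54613 probe sets. They comprise 48 CYP, 9 UGT, 15 GST and 19 ALDH genes. Pseudogenes, antisense transcripts and probe sets that name several genes were kept apart. No measured value entered the rule.

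The levels come from 9 single-colour arrays of total RNA from HuCCT1, a human cholangiocarcinoma line that grows in culture and derives from bile duct epithelium. In 5 samples, named YAPS127A, the cells had received a vector that overexpresses a constitutively active YAP1 with the S127A substitution. YAP1 is a transcriptional co-activator that the Hippo pathway restrains. In the other 4 samples, named empty vector, the cells had received the vector without that insert. The labels describe the same medium with fetal bovine serum for both groups, and do not say how long after transfection the cells were harvested. They also do not say whether a group holds separate cultures or transfections, so the p-values reflect nothing beyond the spread among these samples, and that spread may be technical.

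Detoxification runs in successive phases. Cytochromes P450 (CYP) insert oxygen into lipophilic molecules with electrons from NADPH, and aldehyde dehydrogenases (ALDH) oxidise reactive aldehydes to acids. UDP-glucuronosyltransferases (UGT) then attach glucuronic acid, and glutathione S-transferases (GST) attach glutathione, so that the products can be exported into bile or urine. Many members of the same families also make or break down signals, among them vitamin D, retinoic acid, steroids and eicosanoids.

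Of the 2 markers given with these genes, GSTP1 was plainly detected. Its log2 signal averaged 13.34 ± 0.11 in YAPS127A cells (SD, n = 5) and 13.03 ± 0.13 in empty vector cells (SD, n = 4). ALDH1A1, a retinal dehydrogenase often used to mark stem-like cells, stood at 2.81 ± 0.17 in YAPS127A cells (SD, n = 5) and 3.00 ± 0.17 in empty vector cells (SD, n = 4). Both means lie below 4.26, the lower quartile of all signals, so ALDH1A1 transcript was not evident in either group. The median signal of an array lay between 5.95 and 5.97. The SD of the log2 differences between arrays, over all probe sets, was 0.41 to 0.44 across groups (20 pairs) and 0.19 to 0.25 within groups (16 pairs). The epithelial genes KRT7, KRT19 and EPCAM had signals above 13 in empty vector cells and were not called, nor was ANXA4. The other 5 of 9 measured cholangiocyte markers were lower with YAPS127A, where 14.2% of all genes were, and 2414 of 12226 above the median signal. Their log2 differences were -2.72 for CFTR, -1.46 for TFF1, -1.37 for SPP1, -1.06 for MUC1 and -0.25 for SOX9. Of 13 hepatocyte markers 1 rose, CPS1, and 1 fell, SERPINA1 (15.4% called, against 28.7% of all genes). ALB stood at 4.23 in YAPS127A cells and 4.26 in empty vector cells. YAP1 was not called at any of its 3 probe sets (log2 differences +0.15, +0.03 and +0.16, adjusted p = 0.121 at the brightest). The sources used here do not say whether these probe sets read the construct.

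Detoxification genes changed in both directions. Of the 91 genes, 16 rose with YAPS127A, 15 fell and 60 did not pass limma's test at an adjusted p of 0.05 (Benjamini-Hochberg over all probe sets), when each gene was read from its brightest probe set. The called share was 34.1%, near the 28.7% of all genes (14.5% higher and 14.2% lower), but the members were dimmer than the array. A change of at least 2-fold was seen in 9 of the 91 members, 6 higher and 3 lower, where 619 of all 19775 genes (3.13%) passed and changed that much. Of those 6 higher members 3 are GSTM1, GSTM2 and GSTM4, whose probe sets may share signal, so they may not be separate changes. The median log2 difference of the members was -0.02, against 0.005 over all genes. Of 15 GST genes 7 rose and 1 fell, and CYP genes split into 6 higher and 10 lower of 48. Of 19 ALDH genes 3 rose and 3 fell, and of 9 UGT genes 1 fell. Of the 91 members 41 had a signal above the array median of 5.96, as did 12226 of all 19775 genes. Of those 41 members 24 were called, against 4978 of the 12226 genes (40.7%). Another 27 lay under the lower quartile. In bulk RNA, fewer cells with a transcript and less of it per cell cannot be told apart.

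**Figure D1:**
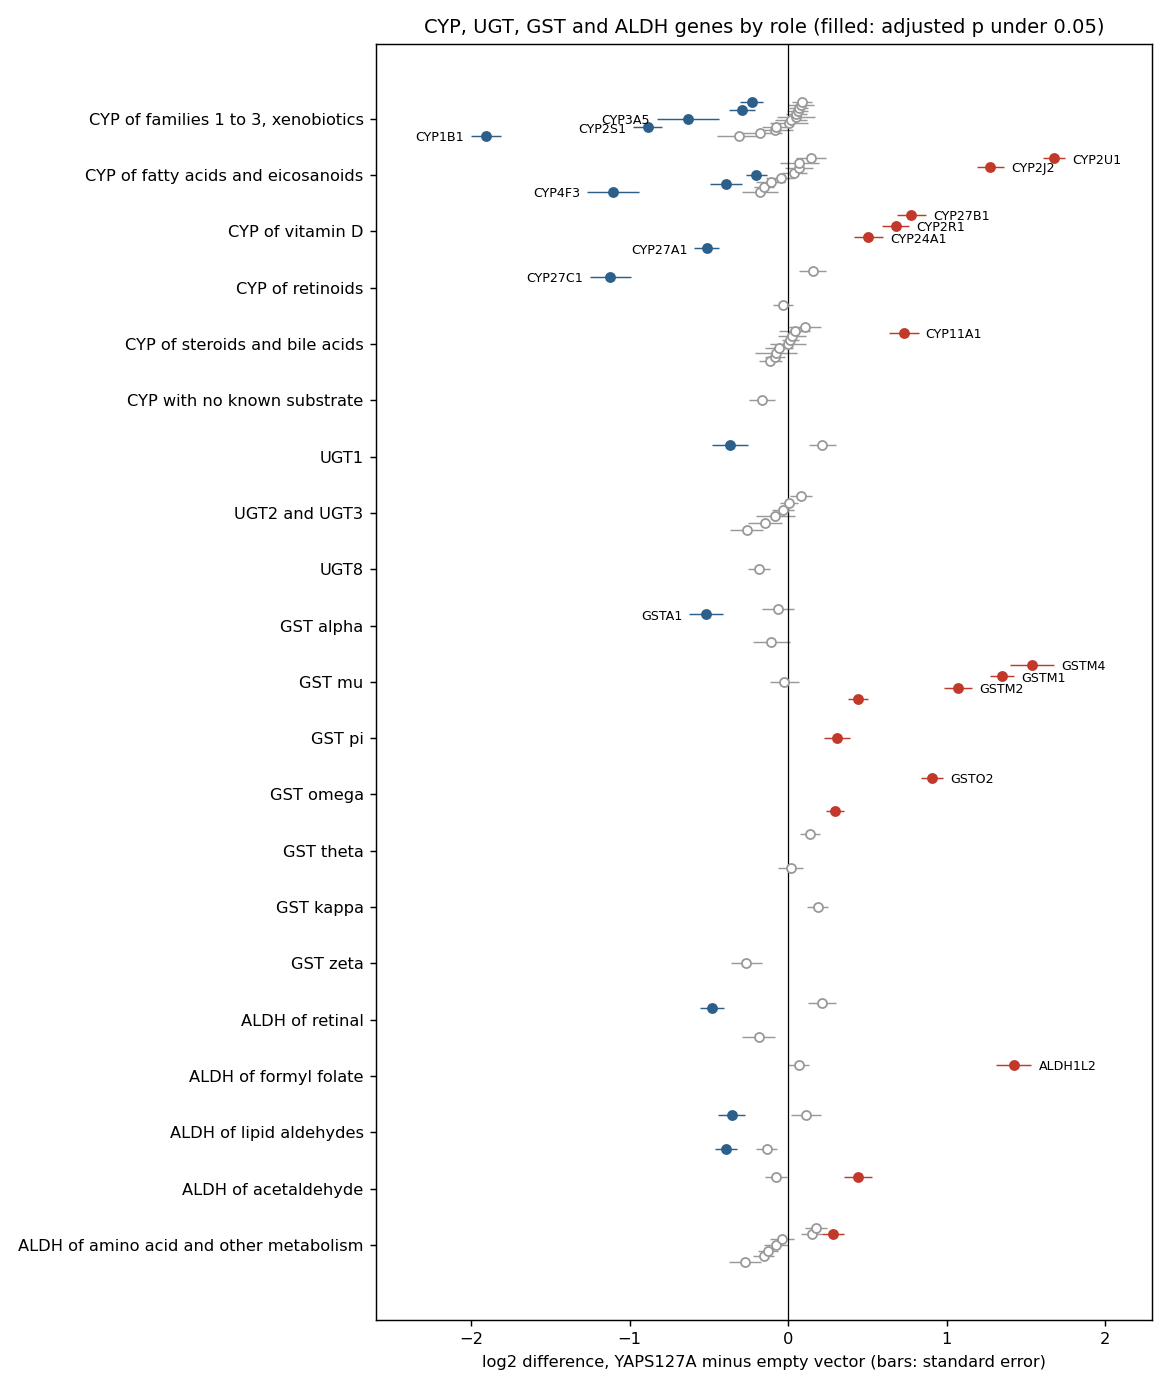
Log2 difference of each of the 91 genes (x axis, YAPS127A minus empty vector, brightest probe set, bars are standard errors), one row per role. Filled points passed the test (red higher, blue lower), open points did not, and called genes with a difference of at least 0.5 are named; the mu class GSTs and the vitamin D CYPs stand mostly to the right, CYP1B1 farthest to the left.

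Of 17 CYP genes in families 1 to 3 with mainly xenobiotic substrates, 5 fell, none rose and 12 did not pass (29.4% called, near the 28.7% of all genes), these with log2 differences of -0.31 to 0.09. CYP1B1, which activates polycyclic aromatic hydrocarbons and also hydroxylates oestradiol, had the deepest fall of all 91 genes. Its log2 signals were 6.84, 7.02, 7.07, 6.86 and 7.05 in the YAPS127A samples, against 8.80, 8.78, 8.76 and 9.17 in the empty vector samples. The groups lay far apart, with no overlap. The log2 difference was -1.91 (SE 0.09, adjusted p = 7.86e-08), or 3.75-fold lower. Of its other probe sets 2 fell as well (-1.73 and -1.87), and a dim one differed by +0.10 (adjusted p = 0.604). CYP2S1, an enzyme of airway and gut epithelium, had 7.04, 6.89, 6.88, 7.13 and 7.32 in YAPS127A cells, against 7.94, 8.02, 7.86 and 7.94 in empty vector cells. Every YAPS127A sample was below every empty vector sample, with a log2 difference of -0.89 (SE 0.09, adjusted p = 2.8e-05).

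CYP3A5, which shares drug and steroid substrates with CYP3A4, was low in all samples. It had 4.99, 4.83, 4.99, 4.45 and 4.04 in YAPS127A cells, against 5.46, 5.58, 5.14 and 4.99 in empty vector cells. The ranges touched at 4.99, and the log2 difference of -0.63 (SE 0.19, adjusted p = 0.0345) lost its call when YAPS127A replicate 4 (-0.58) or the empty vector replicates 1 (-0.57) or 2 (-0.54) were left out in turn. Another of its 4 probe sets fell by 0.69 on the log2 scale (adjusted p = 0.0017) without overlap. CYP1A1, the classical target of the aryl hydrocarbon receptor, fell by 0.29 at signals under the lower quartile. CYP2B6, a drug-metabolising enzyme, fell by 0.23 with overlapping groups, and its other probe set differed by -0.04 (adjusted p = 0.786). These 2 genes, ALDH2, ALDH18A1, ALDH3A1, CYP4X1 and UGT1A1 passed the test with differences too small for the naming rule, and were named after their values were seen. CYP2B6 no longer passed when the shift of its chromosomal neighbours was removed (-0.12, adjusted p = 0.288).

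CYP enzymes of fatty acids and eicosanoids changed in both directions. Of 13 such genes 2 rose, 3 fell and 8 did not pass (-0.18 to 0.14), with 38.5% called against 28.7% of all genes. CYP2U1, which hydroxylates long-chain fatty acids such as arachidonic acid, rose the most of all 91. Its log2 signals were 9.64, 9.56, 9.58, 9.62 and 9.66 in YAPS127A cells, against 7.85, 8.08, 7.82 and 7.98 in empty vector cells. The samples of each group sat close together, and the log2 difference was 1.68 (SE 0.07, adjusted p = 1.65e-08), or 3.21-fold. A further bright probe set rose by 1.46, while 2 dim ones (below 4 in both groups) differed by 0.12 and 0.19 and did not pass, so the mean over all 4 was 0.86. CYP2J2, an epoxygenase that makes epoxyeicosatrienoic acids, had 8.46, 8.62, 8.29, 8.56 and 8.68 in YAPS127A cells, against 7.24, 7.35, 7.18 and 7.21 in empty vector cells. The lowest YAPS127A sample stood clear of the highest empty vector sample, with a log2 difference of 1.28 (SE 0.08, adjusted p = 7.39e-07). Genes next to CYP2J2 on chromosome 1 were also higher, by a median of 0.46, and without that shift CYP2J2 was higher by 0.81.

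Of the 3 genes of this class that fell, 2 were dim. CYP4F3, which inactivates leukotrienes, had 2.85, 2.96, 2.82, 3.00 and 2.89 in YAPS127A cells, against 4.27, 3.68, 3.59 and 4.49 in empty vector cells. The groups did not overlap (-1.11, SE 0.16, adjusted p = 0.000372), but both means lie under the lower quartile, so the size depends on the background. CYP4X1 fell by 0.39 (adjusted p = 0.0129), also under that quartile. CYP4V2, a fatty acid hydroxylase mutated in a retinal dystrophy, was bright and fell slightly, to a mean of 9.28 ± 0.07 in YAPS127A cells (SD, n = 5), against 9.48 ± 0.09 in empty vector cells (SD, n = 4). Its difference of -0.20 (SE 0.07, adjusted p = 0.0447) no longer passed when any one of empty vector replicates 2, 3 and 4 or YAPS127A replicates 1, 3, 4 and 5 was left out, with values of -0.21 to -0.16.

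All 4 vitamin D CYP genes were called, 3 of them higher, where 28.7% of all genes were called and 14.5% were higher. All 4 lie above the median signal, where 40.7% of genes were called and 2564 of 12226 were higher. CYP2R1, the hydroxylase that makes the circulating form of vitamin D, had log2 signals of 9.20, 8.97, 8.78, 8.84 and 8.98 in YAPS127A cells, against 8.18, 8.23, 8.38 and 8.30 in empty vector cells. CYP27B1, which turns that form into the active hormone, had 7.22, 7.21, 6.96, 6.90 and 7.02 in YAPS127A cells, against 6.22, 6.33, 6.15 and 6.45 in empty vector cells. CYP24A1, which inactivates the hormone and is itself induced by it, had 7.81, 7.75, 7.88, 7.55 and 7.60 in YAPS127A cells, against 7.34, 7.30, 7.21 and 6.99 in empty vector cells. In these 3 genes every YAPS127A sample was above every empty vector sample, though the share of all genes without overlap was not counted. The log2 differences were 0.68 for CYP2R1 (SE 0.09, adjusted p = 0.000144), 0.78 for CYP27B1 (SE 0.09, adjusted p = 6.41e-05) and 0.51 for CYP24A1 (SE 0.09, adjusted p = 0.00171). CYP2R1 was called at 2 of its 3 probe sets, and their mean was higher by 0.40. CYP27A1, a mitochondrial sterol hydroxylase of bile acid synthesis that can also hydroxylate vitamin D, went the other way. It had 6.90, 7.09, 7.11, 7.01 and 7.24 in YAPS127A cells, against 7.50, 7.62, 7.69 and 7.53 in empty vector cells (log2 difference -0.51, SE 0.08, adjusted p = 0.000464). The receptor gene VDR differed by +0.18 and was not called (adjusted p = 0.0747). Neighbouring genes of the 4 CYPs shifted by no more than 0.08, and all 4 kept their call without that shift.

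Most retinoid and steroid CYP genes did not pass the test, as was true of 14099 of all 19775 genes. Of 3 retinoid CYPs, CYP27C1, a retinoid desaturase of skin, fell. It had 3.45, 3.51, 3.41, 4.02 and 3.46 in YAPS127A cells, against 4.85, 4.49, 4.60 and 4.83 in empty vector cells. The groups did not overlap (-1.12, SE 0.13, adjusted p = 6.16e-05), though the YAPS127A mean of 3.57 is under the lower quartile. Of 10 steroid and bile acid CYPs, CYP11A1, the mitochondrial enzyme that cleaves the side chain of cholesterol, was the one that passed. It had 7.20, 7.65, 7.35, 7.33 and 7.36 in YAPS127A cells, against 6.73, 6.50, 6.63 and 6.72 in empty vector cells, a log2 difference of 0.73 (SE 0.09, adjusted p = 0.000119). The other 9 differed by -0.11 to 0.10. One of them, the oxysterol hydroxylase gene CYP39A1, differed by +0.04 (adjusted p = 0.831) at its brightest probe set and was called higher at another, by 0.63 (adjusted p = 0.0127), with overlapping groups. CYP20A1, with no assigned substrate, was among the 3 brightest CYPs and differed by -0.17 (adjusted p = 0.189).

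**Figure D2:**
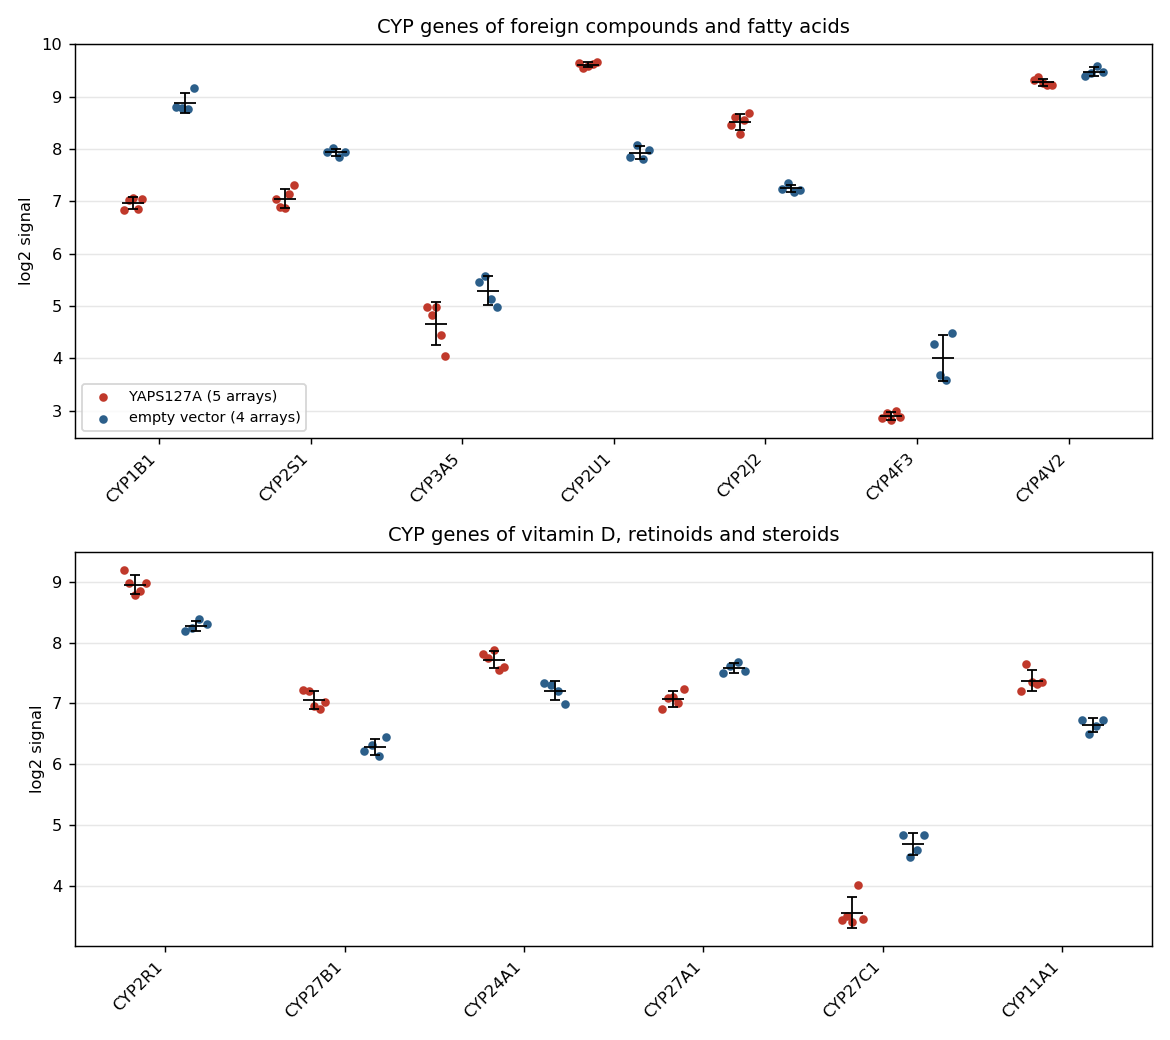
Log2 signal (y axis) of 13 CYP genes in each sample, with YAPS127A samples (red, n = 5) left of empty vector samples (blue, n = 4); black bars give mean and SD. CYP2U1 lies between 9.56 and 9.66 with YAPS127A and between 7.82 and 8.08 with the empty vector, and CYP1B1 shows the opposite order.

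UGT genes of the UGT1A locus could be read mainly through shared probes. One locus on chromosome 2 makes all UGT1A enzymes by joining different promoters and substrate-binding exons to common exons, so most probe sets name several of them. Of 7 such probe sets 6 fell, by 0.96 to 1.11 on the log2 scale, where 23.9% of all probe sets were called in either direction. One of them, naming 6 genes, had 8.35, 8.50, 8.67, 8.45 and 8.40 in YAPS127A cells, against 9.62, 9.59, 9.23 and 9.81 in empty vector cells. The brightest, naming 9 genes, had 8.61, 8.73, 9.05, 8.70 and 8.62 in YAPS127A cells, against 9.92, 9.86, 9.44 and 10.03 in empty vector cells. The groups were separate in all 6, though the share of all probe sets without overlap was not counted. Empty vector replicate 3 was the lowest of its group each time. The log2 differences were -1.09 (SE 0.11, adjusted p = 2.17e-05) and -1.07 (SE 0.13, adjusted p = 6.78e-05), about 2.13-fold and 2.1-fold lower. The dim seventh set differed by -0.23 (adjusted p = 0.195). The 6 readings share exons and are not independent, and which UGT1A enzyme fell cannot be told from them. UGT1A1, which conjugates bilirubin, has a probe set of its own close to background that fell by 0.37 (adjusted p = 0.0364), with overlapping groups. That of UGT1A6, a conjugator of planar phenols, differed by +0.22 (adjusted p = 0.102). Genes around the locus had a median difference of 0.01.

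The remaining UGT genes were not called at their brightest probe set. UGT8, which makes galactosylceramide rather than conjugating drugs, was the brightest, with 9.43 ± 0.10 in YAPS127A cells (SD, n = 5) and 9.61 ± 0.08 in empty vector cells (SD, n = 4), a difference of -0.18 (adjusted p = 0.0886). The 6 genes of the UGT2 and UGT3 families differed by -0.26 to 0.08. UGT2B28, a steroid conjugator, was at -0.26 (adjusted p = 0.0908) and passed without empty vector replicate 2 (-0.36, adjusted p = 0.0177). UGT3A1, which uses N-acetylglucosamine, differed by +0.08 (adjusted p = 0.474). Of these 6 genes 4 lay under the lower quartile.

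Of the 5 mu class GSTs 4 rose, where 14.5% of all genes did, and 2564 of the 12226 above the median signal. Of these 5 genes 4 lie above that median. Their promoters are printed here to show how alike these neighbouring genes are, beside that of GSTP1, the given marker. Each line holds the 250 bases before the gene's start in RefSeq (GRCh38.p14), read along the gene. The positions are chr1:109687567-109687816 for GSTM1 (plus strand), chr1:109667807-109668056 for GSTM2 (plus), chr1:109655849-109656098 for GSTM4 (plus), chr1:109741039-109741288 for GSTM3 (minus), chr1:109712001-109712250 for GSTM5 (plus) and chr11:67583562-67583811 for GSTP1 (plus). Capitals mark the core of the antioxidant response element (TGACNNNGC), which NRF2 binds, and of the dioxin response element (GCGTG), which the aryl hydrocarbon receptor binds, on either strand.
GSTM1: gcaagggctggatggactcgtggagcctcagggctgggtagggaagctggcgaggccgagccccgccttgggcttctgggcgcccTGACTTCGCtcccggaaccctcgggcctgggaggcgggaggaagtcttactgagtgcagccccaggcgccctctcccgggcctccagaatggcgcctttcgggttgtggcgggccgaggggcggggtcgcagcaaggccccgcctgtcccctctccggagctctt
GSTM2: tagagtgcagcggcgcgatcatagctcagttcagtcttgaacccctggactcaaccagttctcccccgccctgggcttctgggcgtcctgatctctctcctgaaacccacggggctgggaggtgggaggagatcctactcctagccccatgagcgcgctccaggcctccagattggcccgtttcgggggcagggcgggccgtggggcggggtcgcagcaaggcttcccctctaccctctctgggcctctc
GSTM4: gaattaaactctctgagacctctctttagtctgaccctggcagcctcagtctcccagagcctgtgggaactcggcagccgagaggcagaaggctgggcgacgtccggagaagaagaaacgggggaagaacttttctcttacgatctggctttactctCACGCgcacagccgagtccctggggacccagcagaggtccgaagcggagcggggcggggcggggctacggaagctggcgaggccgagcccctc
GSTM3: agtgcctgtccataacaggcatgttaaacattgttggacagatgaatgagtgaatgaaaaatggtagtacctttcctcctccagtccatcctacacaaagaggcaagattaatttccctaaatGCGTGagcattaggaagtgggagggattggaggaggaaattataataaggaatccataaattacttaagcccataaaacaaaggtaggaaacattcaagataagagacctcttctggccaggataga
GSTM5: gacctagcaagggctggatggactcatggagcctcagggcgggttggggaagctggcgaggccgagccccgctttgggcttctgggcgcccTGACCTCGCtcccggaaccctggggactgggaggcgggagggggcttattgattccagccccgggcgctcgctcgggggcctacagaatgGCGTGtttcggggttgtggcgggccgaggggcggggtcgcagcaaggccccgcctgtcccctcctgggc
GSTP1: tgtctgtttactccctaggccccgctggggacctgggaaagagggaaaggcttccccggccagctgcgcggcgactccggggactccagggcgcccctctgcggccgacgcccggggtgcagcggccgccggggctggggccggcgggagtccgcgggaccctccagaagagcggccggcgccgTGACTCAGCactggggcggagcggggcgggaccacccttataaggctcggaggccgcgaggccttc

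A match to these letters describes the sequence and shows no binding. The antioxidant core lies 165 bases before the start in GSTM1, 159 in GSTM5 and 66 in GSTP1, where it overlaps an AP-1 site (TGANTCA). The dioxin core lies 127 bases before the start in GSTM3, 93 in GSTM4 on the opposite strand, and 69 in GSTM5. The core of TEAD sites (CATTCC), which YAP1 partners bind, occurs in none of the 6 windows. Of 35093 windows of this length, 10.9% hold the antioxidant core, 32.2% the dioxin core, 11.9% the TEAD core and 6.57% the AP-1 site on either strand. Of the 69 member genes with a window, 14.5%, 29.0%, 10.1% and 5.8% do. These are shares of genes, while the former are shares of windows, so they do not compare directly. The windows of GSTM1 and GSTM5 are 86.0% identical, those of GSTM1 and GSTM2 70.1%, and those of GSTM2 and GSTM5 67.4%, while the other pairs of mu genes share 41.9% to 51.7%.

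The 3 mu genes that rose most were GSTM1, GSTM2 and GSTM4. GSTM1, which is deleted in many people, had log2 signals of 8.19, 8.04, 7.98, 8.11 and 8.27 in YAPS127A cells, against 6.73, 6.82, 6.66 and 6.86 in empty vector cells. GSTM2 had 8.24, 8.14, 8.01, 8.15 and 7.86 in YAPS127A cells, against 7.02, 7.13, 6.84 and 7.04 in empty vector cells. GSTM4 had 7.77, 8.13, 7.85, 8.26 and 8.18 in YAPS127A cells, against 6.64, 6.49, 6.10 and 6.77 in empty vector cells. All 3 are cytosolic enzymes that conjugate electrophiles, and in each the groups stood well apart. The log2 differences were 1.35 for GSTM1 (SE 0.08, adjusted p = 2.08e-07), 1.07 for GSTM2 (SE 0.09, adjusted p = 4.52e-06) and 1.54 for GSTM4 (SE 0.14, adjusted p = 1.09e-05), or 2.55-fold, 2.11-fold and 2.91-fold. The further probe sets of GSTM1 and GSTM4 rose by 1.31 and 1.02. GSTM3, the mu enzyme of brain and testis, was bright and moved less. It had 12.79, 12.78, 12.72, 12.89 and 12.86 in YAPS127A cells, against 12.29, 12.43, 12.35 and 12.41 in empty vector cells (log2 difference 0.44, SE 0.06, adjusted p = 0.000273).

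GSTM5, whose window is the closest to that of GSTM1, was at 3.48 ± 0.07 in YAPS127A cells (SD, n = 5) and 3.51 ± 0.20 in empty vector cells (SD, n = 4), under the lower quartile, and did not pass (-0.02, adjusted p = 0.897). These genes are near copies of each other, and several of their probe sets carry the suffix that marks probes shared with other transcripts, so which of GSTM1, GSTM2 and GSTM4 gave the signal is uncertain. The surrounding genes of chromosome 1 were higher too, by a median of 0.27 to 0.29. With that shift removed on each array GSTM1, GSTM2 and GSTM4 were higher by 1.06, 0.79 and 1.27 and passed, and GSTM3 was at 0.16 and did not (adjusted p = 0.102).

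Pi and omega class genes also rose. GSTP1, the main GST of biliary epithelium and many tumours, had 13.19, 13.46, 13.33, 13.44 and 13.30 in YAPS127A cells, against 13.14, 13.05, 12.84 and 13.10 in empty vector cells. The lowest YAPS127A sample was just above the highest empty vector sample, with a log2 difference of 0.31 (SE 0.08, adjusted p = 0.0156). It was 0.25 without the shift of its neighbours (adjusted p = 0.0575). GSTO2, which reduces dehydroascorbate, had 10.68, 10.95, 10.67, 10.84 and 10.80 in YAPS127A cells, against 9.93, 9.86, 9.90 and 9.83 in empty vector cells. The groups did not overlap, and the log2 difference was 0.91 (SE 0.07, adjusted p = 3.04e-06), with 0.71 at its other probe set. GSTO1, its neighbour on chromosome 10 and a thiol transferase, had 13.32, 13.32, 13.34, 13.39 and 13.34 in YAPS127A cells, against 13.06, 13.02, 13.11 and 12.98 in empty vector cells. It rose by 0.30 (SE 0.06, adjusted p = 0.00217). Genes around the pair were higher by 0.19, and without that shift GSTO2 was higher by 0.72 while GSTO1 was at 0.11 (adjusted p = 0.18).

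The single GST that fell was of the alpha class. GSTA1, the main GST of hepatocytes, had 5.81, 6.22, 5.92, 6.09 and 5.78 in YAPS127A cells, against 6.54, 6.41, 6.32 and 6.65 in empty vector cells. The groups did not overlap (-0.52, SE 0.10, adjusted p = 0.00321), but its other probe set differed by +0.03 (adjusted p = 0.85), and the mean of both was -0.25. The other 2 alpha genes differed by -0.11 and -0.07. The 2 theta genes differed by 0.02 and 0.14, the mitochondrial GSTK1 by 0.19 (adjusted p = 0.069) and GSTZ1, an enzyme of tyrosine breakdown, by -0.26 (adjusted p = 0.071), and none of these passed.

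**Figure D3:**
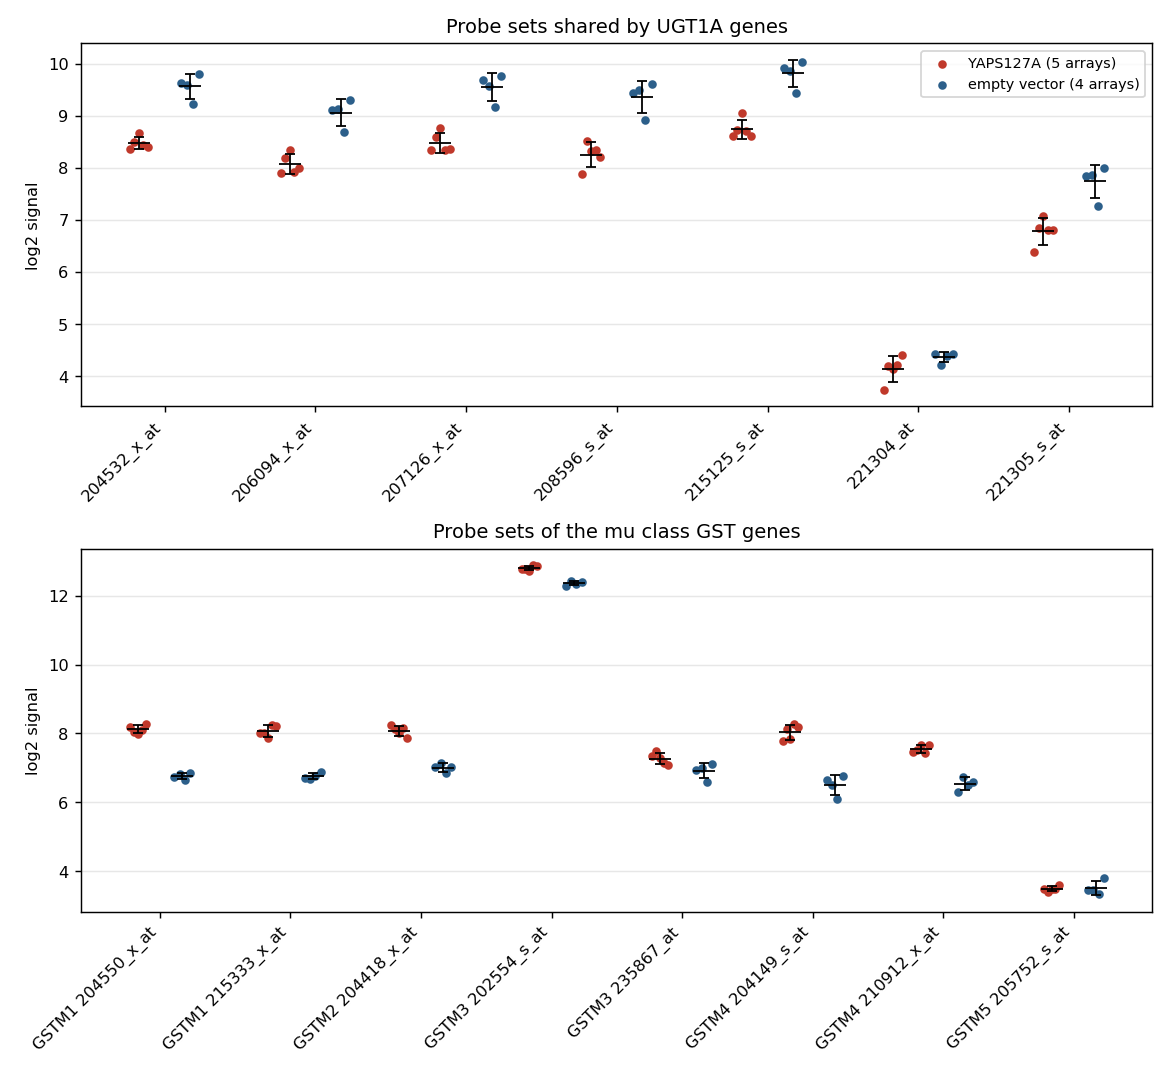
Log2 signal (y axis) in each sample at the 7 probe sets shared by UGT1A genes (upper panel) and at every probe set of the 5 mu class GST genes (lower panel), with YAPS127A samples (red, n = 5) left of empty vector samples (blue, n = 4); black bars give mean and SD. The groups are separate at 6 UGT1A probe sets, lower with YAPS127A. In the lower panel they are separate, higher with YAPS127A, at both GSTM1 and both GSTM4 probe sets, that of GSTM2 and the brighter of GSTM3.

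Among aldehyde dehydrogenases the folate enzyme ALDH1L2 changed the most. This mitochondrial enzyme oxidises formyl tetrahydrofolate and yields NADPH. It had log2 signals of 7.82, 7.74, 7.59, 7.60 and 7.28 in YAPS127A cells, against 6.15, 6.15, 6.41 and 6.02 in empty vector cells. Every YAPS127A sample was clear of the empty vector samples, with a log2 difference of 1.42 (SE 0.11, adjusted p = 3.05e-06), or 2.68-fold. Its other 2 probe sets were dimmer and did not pass (0.17 and 0.31), and the mean of the 3 was 0.63. ALDH1L1, the cytosolic form, differed by +0.07 and did not pass. ALDH2, which clears acetaldehyde in mitochondria, had 10.19, 9.98, 9.83, 10.15 and 9.88 in YAPS127A cells, against 9.60, 9.67, 9.49 and 9.52 in empty vector cells, and rose by 0.44 (SE 0.09, adjusted p = 0.00295). ALDH1B1, its mitochondrial relative, was bright and differed by -0.08 (adjusted p = 0.496).

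At the brightest probe set, 2 of 4 enzymes of lipid aldehydes fell and none rose, and 1 of 3 enzymes of retinal fell and none rose. Over all genes 14.2% fell, and 2414 of the 12226 above the median signal did. ALDH3A2, the fatty aldehyde dehydrogenase lost in Sjögren-Larsson syndrome, had 10.20, 10.05, 10.13, 10.11 and 10.09 in YAPS127A cells, against 10.46, 10.45, 10.69 and 10.43 in empty vector cells. The groups did not overlap (-0.39, SE 0.07, adjusted p = 0.00151), and the other 2 probe sets fell further, by 0.78 and 0.83, giving a mean of -0.67. ALDH3A1, known from the cornea, had 6.19, 6.33, 6.10, 6.22 and 6.24 in YAPS127A cells, against 6.83, 6.41, 6.50 and 6.56 in empty vector cells (-0.36, adjusted p = 0.0106). ALDH1A3, which makes retinoic acid from retinal, was the retinal enzyme that fell. It had 12.63, 12.63, 12.86, 12.58 and 12.78 in YAPS127A cells, against 13.19, 13.10, 13.28 and 13.13 in empty vector cells, and fell by 0.48 on the log2 scale (SE 0.07, adjusted p = 0.000582). Its dim probe set differed by -0.11, and the mean of both was -0.29. ALDH1A1 had 2.69, 3.01, 2.63, 2.76 and 2.98 in YAPS127A cells, against 2.91, 3.26, 2.91 and 2.90 in empty vector cells. The groups overlapped, and its difference of -0.18 did not pass (adjusted p = 0.249). ALDH1A2, the third retinal enzyme, differed by 0.21 at its brightest probe set and did not pass (adjusted p = 0.114). Its other probe set was called higher, by 0.38 (adjusted p = 0.0054), and the mean of both was 0.30. The groups overlapped at neither.

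Of 8 ALDH genes of amino acid and other metabolism 1 rose (12.5% called, against 28.7% of all genes). ALDH18A1, which makes the precursor of proline, was higher by 0.28 (adjusted p = 0.0121) and by 0.39 at its other probe set. Its neighbours on chromosome 10 were higher by 0.32, and without that shift it was at -0.04 (adjusted p = 0.746). ALDH7A1, of lysine breakdown, was bright and differed by -0.04 (adjusted p = 0.792). ALDH6A1, of valine breakdown, differed by 0.18 (adjusted p = 0.093) at its brightest probe set, while 3 of its 5 probe sets were called higher by 0.49, 0.51 and 0.53. With its neighbours' shift of -0.13 removed, its difference was 0.31 (adjusted p = 0.0105).

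**Figure D4:**
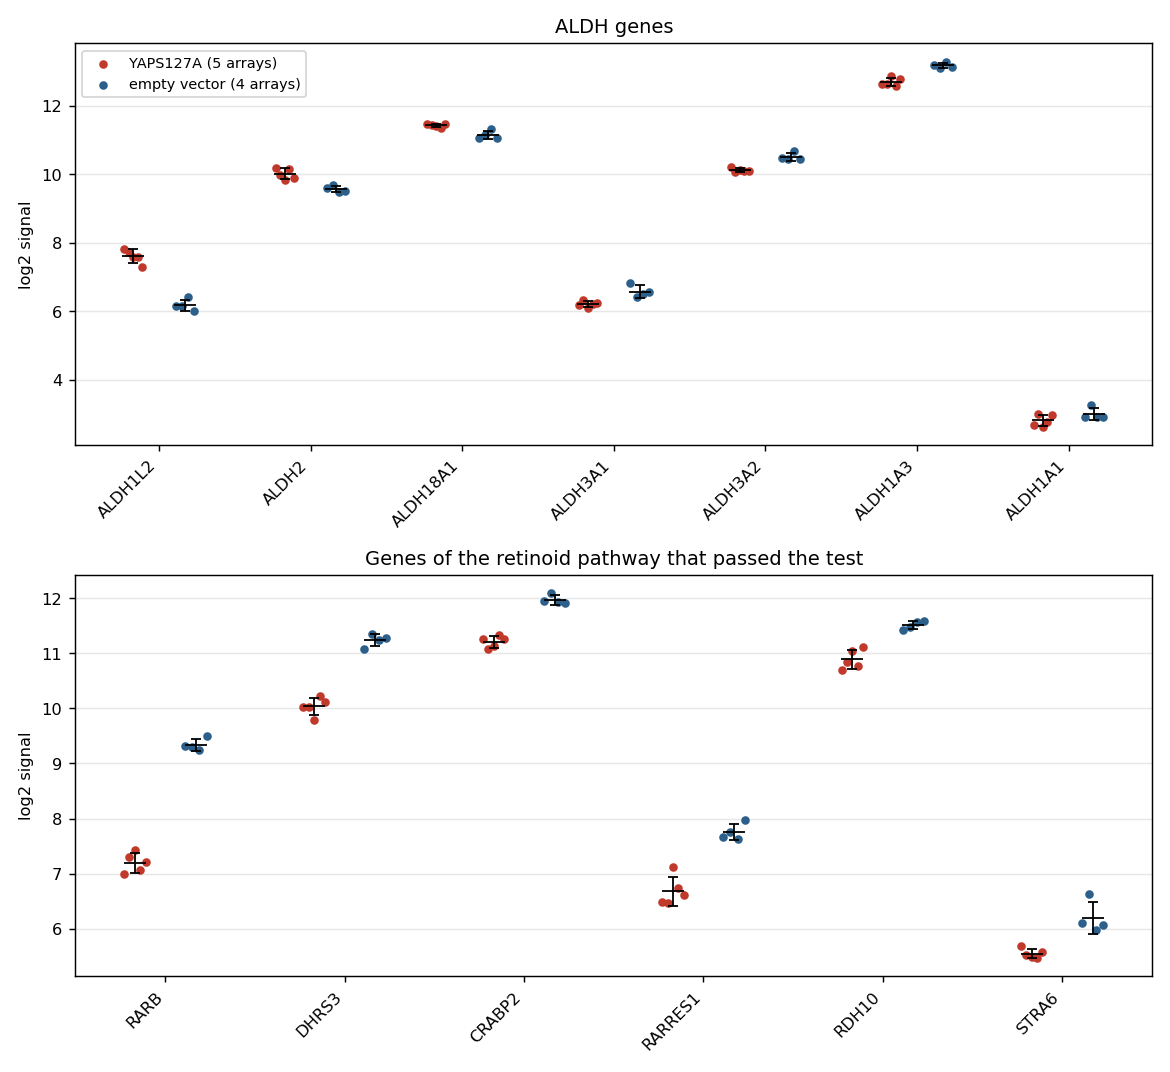
Log2 signal (y axis) in each sample of 7 ALDH genes (upper panel) and of the 6 retinoid pathway genes that passed the test (lower panel), with YAPS127A samples (red, n = 5) left of empty vector samples (blue, n = 4); black bars give mean and SD. ALDH1L2 and ALDH2 are higher with YAPS127A, and all 6 retinoid genes are lower.

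Related genes were read from 6 lists, whose called shares stand beside 28.7% of all genes and 40.7% of genes above the median signal. Most listed genes lie above that median, as do 12226 of all 19775 genes. Of the listed genes above it, 11 of 18 phase I enzymes outside CYP and ALDH, 10 of 17 regulators and 5 of 10 retinoid genes were called. For glutathione supply the count was 6 of 12, for electron donors 3 of 7 and for other conjugating enzymes 4 of 14. These counts are the ones that compare with 40.7%. Of 7 measured genes that pass electrons to CYPs, 3 rose, none fell and 4 did not pass (42.9% called, with all 7 above the median signal). CYB5R3, a reductase of cytochrome b5, rose by 0.63 (adjusted p = 0.000125) and CYB5B, its mitochondrial partner, by 0.64 (adjusted p = 0.000428). Their neighbours were higher by 0.36 and 0.39, and without that shift CYB5R3 was at 0.28 (adjusted p = 0.0189) and CYB5B at 0.25 (adjusted p = 0.102). FDX1, the ferredoxin of mitochondrial CYPs such as CYP11A1, CYP24A1 and CYP27B1, rose by 0.24 (adjusted p = 0.0105), and was at 0.12 without its neighbours' shift (adjusted p = 0.157). CYB5A was at 0.21 and did not pass (adjusted p = 0.127). Nor did POR, at -0.15 (adjusted p = 0.359), FDX2, at -0.15 (adjusted p = 0.256), and CYB5R1, at 0.004 (adjusted p = 0.978), named to complete the list.

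Of 14 genes of glutathione supply 6 rose, none fell and 8 did not pass (42.9% called, with 12 of 14 above the median signal). GGT5, a surface enzyme that cleaves glutathione and its conjugates, averaged 8.44 ± 0.16 in YAPS127A cells (SD, n = 5) and 7.11 ± 0.30 in empty vector cells (SD, n = 4), a difference of 1.33 (SE 0.13, adjusted p = 2.13e-05). CHAC1, which degrades glutathione, rose by 0.61, SLC1A5, a glutamine transporter, by 0.46, and GCLM, the regulatory subunit of the enzyme that starts glutathione synthesis, by 0.52. GCLM lies on chromosome 1 among genes higher by 0.43, and without that shift it was at 0.08 and did not pass (adjusted p = 0.423). The list thus holds both makers and breakers of glutathione. Of 22 other conjugating enzymes and suppliers 5 rose and 1 fell (27.3% called). The arylamine acetyltransferase gene NAT1 rose by 0.49 (adjusted p = 0.000106), and the dim genes GLYAT and SULT1E1 by 0.35 and 0.32, with a mean over probe sets of 0.23 for GLYAT. MGST3, a membrane-bound glutathione transferase of another family, fell by 0.46 (adjusted p = 0.000124), and was at -0.15 without its neighbours' shift of -0.30 (adjusted p = 0.0702). The mean of its probe sets was -0.18.

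Other oxidising and reducing enzymes showed the deepest falls near these families. Of 29 phase I enzymes outside CYP and ALDH, 8 fell and 4 rose (41.4% called, with 18 of 29 above the median signal, median difference -0.02). The carbonyl reductase genes AKR1B10 (-3.08, adjusted p = 7.7e-09), AKR1C3 (-3.07, adjusted p = 2.6e-08) and AKR1C1 (-2.95, adjusted p = 3.96e-07) fell. MAOB, which oxidises amines to aldehydes, fell to 3.48 ± 0.16 in YAPS127A cells (SD, n = 5), against 5.68 ± 0.07 in empty vector cells (SD, n = 4), and the mean of its probe sets was -0.77. For AKR1C1 that mean was -1.15.

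Of 23 measured regulators of detoxification genes 9 fell and 2 rose (47.8% called, with 17 of 23 above the median signal, median difference -0.08). The aryl hydrocarbon receptor gene AHR, whose protein drives CYP1A1 and CYP1B1, had 10.84, 10.78, 11.00, 10.78 and 10.88 in YAPS127A cells, against 11.30, 11.29, 11.41 and 11.24 in empty vector cells. The groups did not overlap, and it fell by 0.46 on the log2 scale (SE 0.07, adjusted p = 0.000402). To complete this axis after its values were seen, the partner gene ARNT fell by 0.52, TIPARP and AHRR, which are targets and repressors of the receptor, by 0.41 and 0.24, and NFE2L2, which encodes NRF2, by 0.35. The means over probe sets were smaller, -0.24 for ARNT and -0.11 for NFE2L2, and ARNT was at -0.25 without its neighbours' shift of -0.27 (adjusted p = 0.0355). NR5A2, a nuclear receptor of bile acid synthesis, fell by 2.75 (adjusted p = 6.8e-07) and FOXA1, a pioneer factor of liver genes, by 1.52 (adjusted p = 4.72e-07), with means over probe sets of -1.58 and -0.98. PPARA, a fatty acid receptor, rose by 1.09 (adjusted p = 1.23e-06), with a mean over probe sets of 0.69, and was at 0.77 without its neighbours' shift of 0.32.

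Of 14 measured retinoid pathway genes 6 fell, none rose and 8 did not pass (42.9% called, with 10 of 14 above the median signal, median difference -0.22). The receptor gene RARB, a target of retinoic acid, had 6.98, 7.29, 7.43, 7.06 and 7.20 in YAPS127A cells, against 9.31, 9.31, 9.25 and 9.49 in empty vector cells. The groups lay far apart (-2.15, SE 0.09, adjusted p = 3.15e-08), though the mean of its probe sets was -0.87. DHRS3, which reduces retinal back to retinol, fell by 1.20 (adjusted p = 2.22e-06), the carrier gene CRABP2 by 0.76 (adjusted p = 1.39e-05) and RARRES1, a gene induced by retinoids, by 1.08 (adjusted p = 7.73e-05). CRABP2 was at -0.51 without its neighbours' shift. Of the genes that act just before ALDH1A3, the retinol dehydrogenase RDH10 fell by 0.62 and the retinol receptor STRA6 by 0.65, both named to complete the count of 6. The means of their probe sets were -0.38 and -0.40, and RDH10 was at -0.32 without its neighbours' shift of -0.31. The 8 genes that did not pass were DHRS9 (-0.25), RDH11 (-0.19), PLAAT4 (0.19), TGM2 (-0.02) and LRAT (0.01), and the receptor genes RARG (0.13), RXRG (0.08) and RARA (0.01). Of these, PLAAT4 and TGM2 had mean signals above 12 in both groups. The retinoid CYP gene CYP26A1, under the lower quartile, differed by -0.03 (adjusted p = 0.769).

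Some of the calls changed once the shift of chromosomal neighbours was taken out. With the median difference of up to 50 neighbouring genes removed on each array, 12 of the 16 higher members kept their call and 14 of the 15 lower ones did. The calls lost were those of ALDH18A1, GSTM3, GSTO1 and GSTP1 among the higher genes, and CYP2B6 among the lower ones. A gene that does not follow its neighbours gains a difference by this subtraction, and 6 members were called higher and 6 lower only then. CYP2U1, ALDH1L2, CYP1B1, CYP27C1 and CYP11A1 sat among neighbours that shifted by no more than 0.07.

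**Figure D5:**
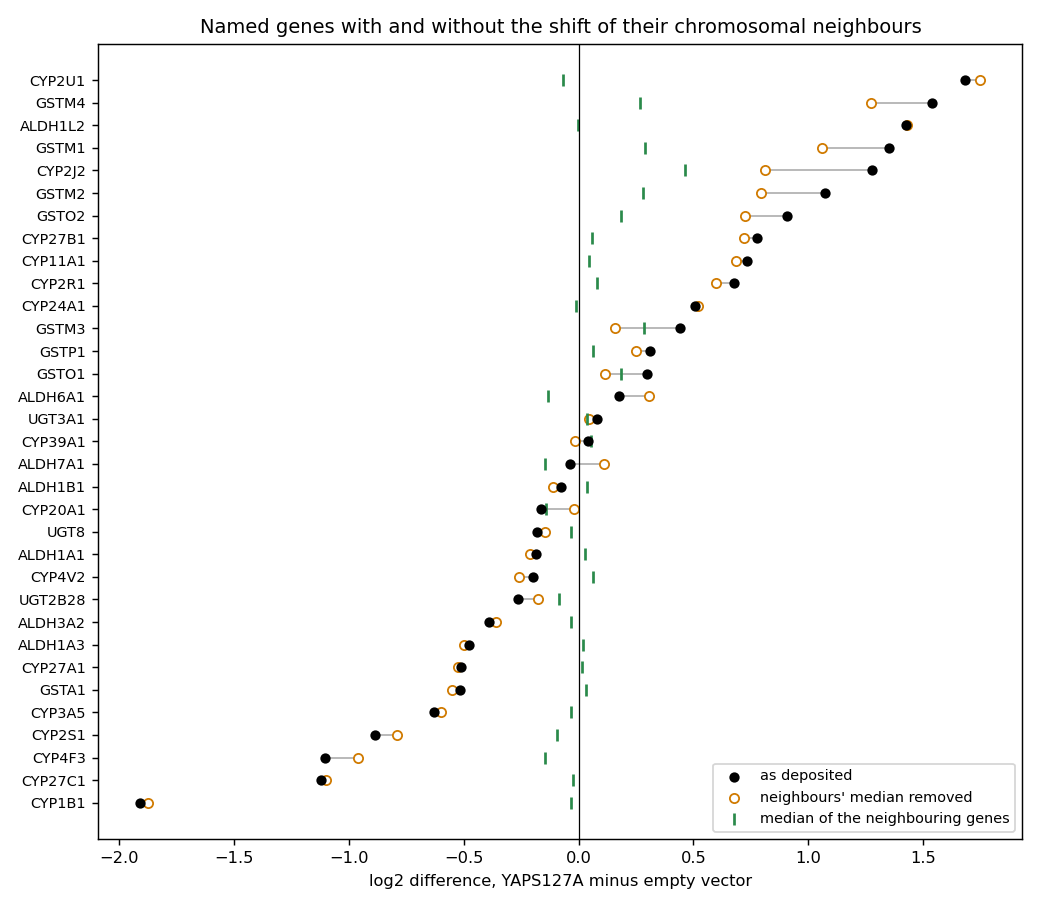
Log2 difference (x axis, YAPS127A minus empty vector) of the 33 named member genes as deposited (black), with the median of their chromosomal neighbours removed (open orange), and that median itself (green ticks). The neighbours of CYP2J2 and of the GSTM genes lie to the right of 0, at 0.46 and at 0.27 to 0.29.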

How the data were processed

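Total RNA of HuCCT1 cells was labelled with biotin and measured on 9 arrays, per the labels' protocols. Each deposited value is a log2 signal of 1 probe set, as judged from the range. The sources used here do not give how the authors normalized, summarised or background-corrected these log2 values. There were 0 columns of other samples. Groups came from the vector named in the labels.

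After 62 control probe sets were left out, 54613 were tested. The platform annotation, which is old, left 11721 unnamed, and named 1 gene for 41091 and more than 1 for 1801. Symbols were brought up to date by gene ID through RefSeq (GRCh38.p14), which matched 41037. Members, lists and roles were chosen with earlier results of these data known, so their counts are a description. A gene was read from its brightest probe set. Of the 91 members 45 have several probe sets, and 0 had opposite calls.

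Groups were compared with limma 3.58.1 (R 4.3.3; lmFit, eBayes, 11.4 total degrees of freedom), with no covariate and Benjamini-Hochberg adjustment over all probe sets at a threshold of 0.05. The script was tested on simulated data. The number of arrays limits the precision. Named were ALDH1A1, GSTP1, members with a called probe set of at least 0.5 in log2 difference, the 3 brightest of each family, members with opposite calls and, in each list, up to 4 genes of lowest p. Neighbours were up to 50 genes in RefSeq order. Promoters came from RefSeq, with windows for 69 of 91 members.

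The alternatives were quantile normalization, median centring, dim probe sets left out, trend and robust eBayes, array weights, a replicate block, a covariate for RNA integrity (the 3' minus 5' actin signal), each array left out, the mean of probe sets and the neighbours' median removed. Leaving out both arrays with the largest actin gap was added after seeing the data. A pseudocount was not needed. Plots used matplotlib 3.10.9 (Python 3.11.15).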

Additional observations from a re-analysis of the deposited data

Results flagged for a closer look

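In 80 groups of 4 or 5 samples, the highest or lowest sample stood apart from the others by Dixon's test in 7, where chance gives about 1 in 20, or 4.0. CYP1B1 had 9.17 in empty vector replicate 4, against 8.76 to 8.80 in the other empty vector samples. ALDH3A2 had 10.69 in empty vector replicate 3, against 10.43 to 10.46 in the others. ALDH1A1 had 3.26 in empty vector replicate 2, against 2.90 to 2.91 in the others, all near background. CYP27C1 had 4.02 in YAPS127A replicate 4, against 3.41 to 3.51 in the other YAPS127A samples. GSTO1 had 13.39 in YAPS127A replicate 4, against 13.32 to 13.34 in the others. The brightest shared UGT1A probe set had 9.05 in YAPS127A replicate 3, against 8.61 to 8.73 in the others. At the shared UGT1A probe set that was not called, empty vector replicate 2 was the lowest with 4.22, against 4.40 to 4.43. None of these samples reached the other group in the called genes CYP1B1, ALDH3A2, CYP27C1 and GSTO1.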

How the results depend on the processing

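The counts stayed within 1.5 times. Over all alternatives 14 to 21 members were called higher (16 as reported, 16 to 17 with 1 array left out), 11 to 20 lower (15 as reported, 11 to 14 with 1 array left out) and 38 to 50 listed genes were called (44 as reported). The 6 UGT1A probe sets were called lower in every alternative run for them. Those were all but the neighbours' removal and the mean of probe sets, which need 1 gene. Of 624 recomputed differences of the 33 named genes, 596 kept direction and side of the threshold, and 19 of the 24 called genes did so everywhere. CYP3A5, CYP4V2, GSTM3, GSTO1 and GSTP1 did not. Signs turned only in genes that were not called. ALDH7A1 was at 0.11 with the neighbours' median removed. CYP39A1 was at -0.015 with it removed, at -0.0029 to 0.12 with 1 array left out (lowest without YAPS127A replicate 1) and at -0.0071 without both arrays of the largest actin gap. Averaging its probe sets put UGT3A1 at -0.056. The cause was not tested. The actin 3' to 5' gap averaged 1.09 in YAPS127A samples and 1.25 in empty vector samples (2-sided exact permutation test, p = 0.444, 126 splits). Replicate numbers did not pair the samples: same-numbered arrays correlated at -0.25, 0.04, 0.01 and 0.03 in their deviations from the group means. With the replicate block 14 members were higher and 13 lower, CYP4V2 was at -0.19 (adjusted p = 0.167) and GSTP1 at 0.32 (adjusted p = 0.0509). Signals near background limit the size of differences in dim genes.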

Other observations

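Probe sets kept apart from the 91 genes held a few calls. CYP51A1, the lanosterol demethylase of cholesterol synthesis, shares its probe sets with LRRD1. One had 13.01, 13.03, 13.24, 12.94 and 13.13 in YAPS127A cells, against 12.74, 12.67, 12.93 and 12.76 in empty vector cells, a log2 difference of 0.30 (SE 0.08, adjusted p = 0.0173). The other rose by 0.70 (adjusted p = 0.000935). GSTT2, which RefSeq lists as a transcribed pseudogene, fell by 0.32 (adjusted p = 0.0469). Besides ALDH6A1 and CYP39A1, genes called only at a probe set other than the brightest were CYP19A1 (aromatase, 0.40, adjusted p = 0.0164), ALDH1A2 (0.38, adjusted p = 0.0054), ALDH4A1 (0.29, adjusted p = 0.0168) and CYP3A4 (-0.28, adjusted p = 0.0289). These genes were chosen after their values were seen.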
